A study of Mus musculus with 24 samples.

Results

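Regional patterning transcription factors are the homeobox, Zic, Fox, basic helix-loop-helix and zinc-finger proteins that tell a neuron which part of the brain it belongs to. The set described here is a list of 39 such genes, matched by symbol to the Ensembl IDs of the count tables, and all 39 of 39 were present among 37621 counted features. Poly(A) RNA was sequenced from 4 dissected regions of Cdr1as knockout (KO) and wild-type (WT) C57BL/6 mice. The 8 groups were KO and WT cerebellum, KO and WT cortex, KO and WT hippocampus, and KO and WT olfactory bulb, with 3 libraries each and 24 in all. The age of the mice and the construction of the knockout allele are not given in the sources used here. No label states that replicates came from separate mice, and p-values therefore measure only the spread between these samples, which may be technical.

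During development these factors divide the neural tube into territories, and many stay on in the mature neurons that derive from each territory. En1, En2, Pax2 and Pax3 belong to the midbrain and hindbrain, the Zic, Barhl and Neurod1 genes to cerebellar granule cells, the Dlx genes to GABAergic neurons of the ventral forebrain, and Emx1, Emx2, Lhx2, Fezf2 and Neurod6 to the dorsal forebrain. Cdr1as is a circular RNA abundant in neurons that binds the microRNA miR-7. Circular RNA lacks a poly(A) tail, and these libraries do not measure it directly.

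Libraries held 21.069 to 40.472 M gene counts. Levels are given as CPM, a gene's counts relative to library size, scaled between libraries with trimmed-mean (TMM) factors. Cdr1asG, the feature for the targeted locus, averaged 0.607, 0.325, 0.889 and 0.333 CPM in KO cerebellum, cortex, hippocampus and olfactory bulb, against 17.8, 6.52, 7.88 and 6.82 CPM in the WT regions. Averaged over regions its log2 difference, KO minus WT, was -4.19 with a standard error (SE) of 0.45, and it was lower in 12 of 12 pairs of libraries with the same number (edgeR, adjusted p = 4.4e-05). Within single regions KO and WT libraries did not overlap, but the difference did not pass edgeR's test over all genes (adjusted p = 0.50, 0.084, 0.95 and 0.58 in cerebellum, cortex, hippocampus and bulb). Such pairs, 3 in each region, go by library number alone. The dissections carried their own markers. The summed level of 10 cerebellum markers was 6156 to 6909 CPM in the 6 cerebellum libraries and at most 58.0 CPM elsewhere, and that of 10 olfactory bulb markers was 1901 to 2167 CPM in the bulb and at most 557 CPM elsewhere. The cortex and hippocampus lists were less exclusive. Summed cortex markers were 1471 to 1670 CPM in cortex and up to 784 CPM in bulb. Summed hippocampus markers were 658 to 828 CPM in hippocampus and up to 365 CPM in cortex.

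Some libraries stood apart in ways that touch the members. Cerebellum library 1 was the highest for Lhx9 in both genotypes, with 8.87 CPM in KO library 1 against 0.762 and 0.499 CPM in KO libraries 2 and 3, and 12.3 CPM in WT library 1 against 0.658 and 1.28 CPM in WT libraries 2 and 3. Meis2, Bcl11b, Lhx2 and En1 were likewise highest in library 1 of both genotypes. The summed cortex markers were 95.4 CPM in KO cerebellum library 1 and 75.0 to 75.7 CPM in the other KO cerebellum libraries. In WT cerebellum they were 125 CPM in library 1 and 68.1 to 71.0 CPM in the others. WT cortex itself averaged 2.05 CPM of Lhx9 and had no En1 count. Summed thalamus markers were 209 CPM in WT cerebellum library 1 and 178 to 179 CPM in the others. In KO cerebellum they were 203 CPM and 178 to 192 CPM. Among them Tcf7l2 was 45.04 CPM in WT library 1, against 5.49 and 5.91 CPM in libraries 2 and 3. In KO it was 29.95 CPM, against 5.62 and 6.08 CPM. Zfhx3 was likewise highest in library 1 of both genotypes, and Prkcd in neither. Libraries numbered 2 were the lowest of their 3 in at least 7 of the 8 groups for Cux1, Prox1 and Zbtb20, and the highest for Barhl2, among 39 members. Of 16098 genes with more than 240 summed counts, 8.21% were lowest and 7.86% were highest in number 2 to that extent. The members, with 3 and 1 of 39, were below both shares. The part of marker content and of library number in the values below was not tested unless a value without a library is given.

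The regional code was read first in the 12 WT libraries, where it asks which region each factor marks. A gene is said to lead in the region with its highest level when it was higher there than in each of the other 3 regions at an adjusted p under 0.05 (edgeR quasi-likelihood test, Benjamini-Hochberg over 16729 genes). By this rule 28 of the 39 members led in 1 region, while 25.8% of all genes tested led in 1. The cerebellum had 14 leading members (12.1% of all genes led there), the olfactory bulb 7 (7.79%), the hippocampus 4 (2.8%) and the cortex 3 (3.16%). The list was made of regional factors, so a high share was built into it. How exclusive a leading gene was is given as its share, the mean CPM in its highest region as a percentage of the sum of its 4 regional means. In these bulk libraries, more cells of a type and more RNA per cell cannot be told apart.

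**Figure D1:**
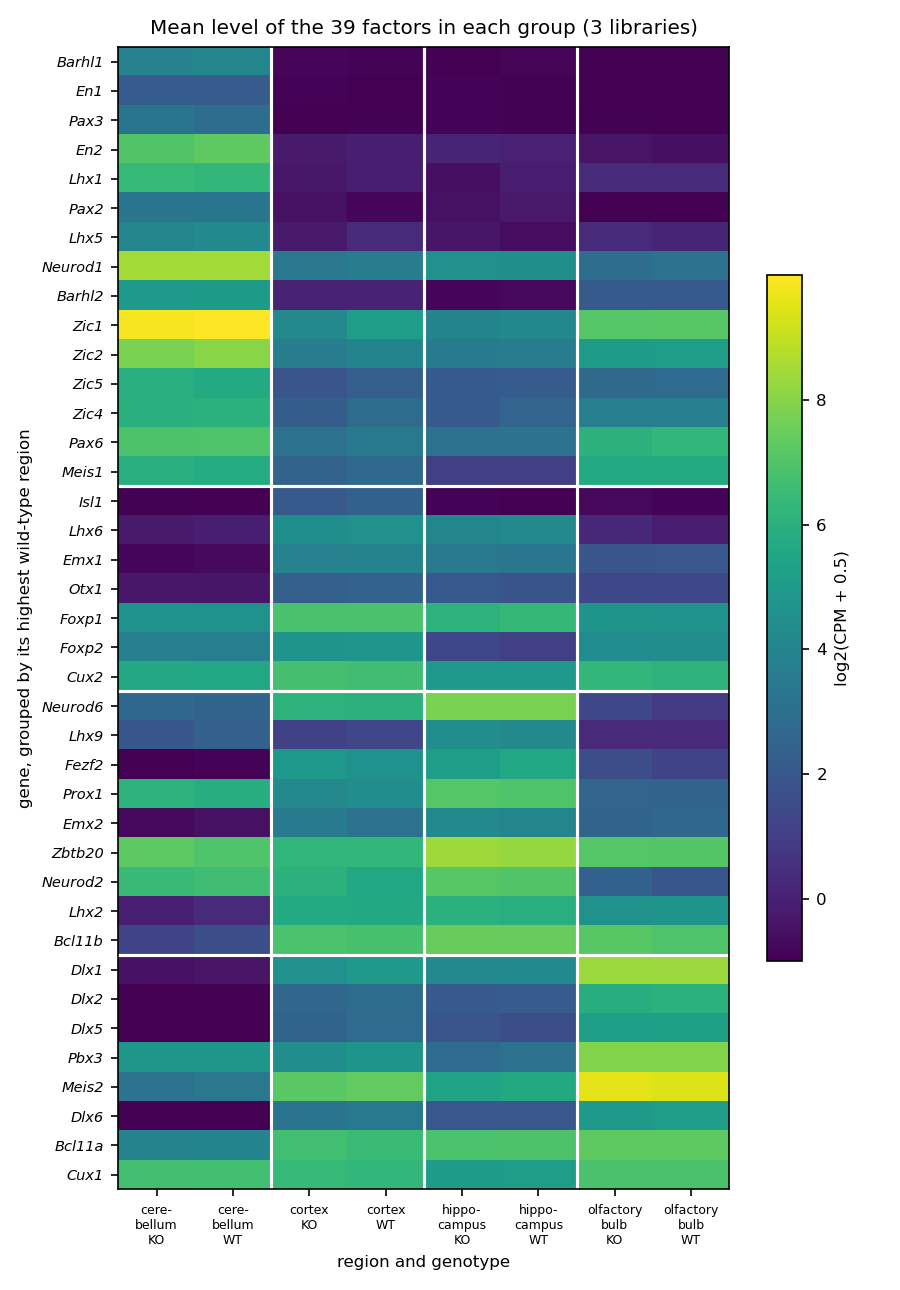
Mean level of each of the 39 factors (rows) in each region and genotype (columns, KO left of WT, 3 libraries each), as log2(CPM + 0.5), with rows grouped by the region of the highest WT level and ordered by share within a group. All 39 members have the same highest region in KO as in WT, and the cerebellum block at the top is the largest with 15 rows.

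By their known roles, cerebellar leaders fall into early midbrain-hindbrain factors, Purkinje and interneuron factors and granule cell factors. These bulk libraries do not resolve such cell types. Barhl1, a homeobox factor of granule cell precursors, had 17.1, 17 and 14.6 CPM in WT cerebellum, and the other 9 WT libraries together held 7 of its counts. Pax3 had 6.24, 7.34 and 7.97 CPM in WT cerebellum and 5 counts elsewhere, and En1, an engrailed factor of the isthmus, had 6.97, 1.88 and 3.37 CPM and 2 counts elsewhere. The shares of Barhl1, Pax3 and En1 were 99.4%, 99.3% and 99.3%. No En1 read was counted in WT cortex or WT olfactory bulb, where 3 counts over the group, the limit that a count of 0 allows, would be 0.0368 and 0.0389 CPM. Such limits cover counting error only. En2, the partner of En1, had 142, 159 and 155 CPM in WT cerebellum and at most 0.633 CPM in any other WT library.

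Lhx1 and Lhx5, LIM homeobox factors of Purkinje cells, averaged 78.3 ± 9.5 and 18.0 ± 1.1 CPM in WT cerebellum (SD, n = 3), with shares of 98.0% and 92.5%. Pax2, which marks precursors of cerebellar inhibitory interneurons, averaged 9.24 ± 1.0 CPM (SD, n = 3) there and had no count in the WT bulb, where the limit is 0.0389 CPM. Zic1, a zinc-finger factor of granule cells, had 988, 1034 and 1042 CPM in WT cerebellum. Its second region was the bulb, at 135, 143 and 137 CPM, a log2 difference of 2.88 (SE 0.18, edgeR adjusted p = 9.5e-08). Zic2, Zic4 and Zic5 also had the bulb second, with log2 differences of 2.93, 2.27 and 2.98, and shares of 71.5% for Zic4 to 80.9% for Zic2. Neurod1, a bHLH factor of granule cells, averaged 360 ± 33 CPM in cerebellum and 21.8 ± 1.0 CPM in hippocampus (SD, n = 3), a log2 difference of 4.04. Barhl2 had 31.7 ± 7.2 CPM in cerebellum and 3.81 ± 0.11 CPM in bulb (SD, n = 3). Pax6, a paired-box factor of granule cells and of the bulb, had the smallest lead of the 14, with 108, 138 and 130 CPM in cerebellum against 72.7, 79.3 and 76.9 CPM in bulb (log2 0.71, SE 0.11, edgeR adjusted p = 0.00023).

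The factors that led in the olfactory bulb included ones known from its inhibitory interneurons. Dlx1 had 303, 365 and 305 CPM in WT bulb against 34.7, 28.0 and 29.0 CPM in WT cortex, its second region (log2 3.41, SE 0.13, edgeR adjusted p = 7.9e-09). Dlx2 averaged 65.0 ± 8.4 CPM, Dlx5 37.8 ± 7.0 CPM and Dlx6 34.8 ± 6.3 CPM in WT bulb (SD, n = 3), and all 4 Dlx genes ran in the order bulb, cortex, hippocampus, cerebellum. In WT cerebellum Dlx1 had 22 counts over 3 libraries, Dlx5 had 1, and Dlx2 and Dlx6 had 0, for which the limit is 0.0323 CPM. Meis2, a cofactor of homeobox proteins in striatal and bulb neurons, had 683, 739 and 656 CPM in bulb and 150, 173 and 172 CPM in cortex. Pbx3, a partner of Meis proteins, averaged 242 ± 17 CPM in bulb against 27.5 ± 1.1 CPM in cerebellum (SD, n = 3, log2 3.14). Bcl11a, a zinc-finger repressor of forebrain neurons, led in bulb by a log2 difference of only 0.37 over hippocampus (SE 0.082, edgeR adjusted p = 0.0037), with 158, 153 and 158 CPM against 123, 122 and 118 CPM.

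Hippocampal leaders were Neurod6, Fezf2, Prox1 and Neurod2. Neurod6, a bHLH factor of pyramidal cells, had 233, 220 and 197 CPM in WT hippocampus against 68.8, 61.9 and 66.5 CPM in WT cortex (log2 1.72, SE 0.13). Fezf2, a zinc-finger factor of deep-layer projection neurons, had 41.7, 52.0 and 43.8 CPM in hippocampus against 23.9, 26.3 and 23.1 CPM in cortex (log2 0.91, SE 0.11), and 3 counts in all of WT cerebellum. Prox1, which marks granule cells of the dentate gyrus, averaged 124 ± 28 CPM in hippocampus and 58.0 ± 6.5 CPM in cerebellum (SD, n = 3). Neurod2, a bHLH factor of excitatory neurons, led by the narrowest margin of the 4, with 145, 124 and 115 CPM against 81.3, 110 and 101 CPM in cerebellum (log2 0.39, edgeR adjusted p = 0.018). Its lead was lost without WT cerebellum library 1 (adjusted p = 0.071) or without WT hippocampus library 1 (adjusted p = 0.063).

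Cortical leaders were Isl1, Foxp1 and Cux2. Isl1, a LIM homeobox factor of striatal and cholinergic neurons, had only 3.97, 4.49 and 5.90 CPM in WT cortex, but the other 9 WT libraries together held 5 of its counts, which gave it a share of 98.9%. Foxp1, a forkhead factor of cortical projection neurons and striatal neurons, averaged 115 ± 20 CPM in cortex and 80.4 ± 4.2 CPM in hippocampus (SD, n = 3, log2 0.51, edgeR adjusted p = 0.013). Summed striatum markers were 802 to 1363 CPM in WT cortex and 106 to 128 CPM in WT hippocampus, and WT cortex library 1, the lowest in striatum markers, was also the lowest for Isl1, Foxp1, Foxp2, Meis2 and Bcl11b. Cux2, a factor of upper-layer neurons, averaged 97.9 ± 14 CPM in cortex and 68.8 ± 8.1 CPM in bulb (SD, n = 3, log2 0.51, edgeR adjusted p = 0.038). Cux2 lost its lead in 5 of 12 runs that left out 1 WT library, with adjusted p of 0.050 without cerebellum library 3, 0.081 and 0.10 without cortex library 1 or 2, and 0.11 and 0.099 without bulb library 2 or 3. The lead was also lost with the library number as a block (adjusted p = 0.050) and without the libraries numbered 2 (log2 0.36, adjusted p = 0.23).

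The other 11 members did not pass the rule for leading. Meis1 averaged 55.7 ± 6.6 CPM in cerebellum and 51.8 ± 4.9 CPM in bulb (SD, n = 3), against 6.35 and 1.61 CPM in cortex and hippocampus. Cux1 was the most even member, with 114 ± 14 CPM in bulb, 101 ± 10 CPM in cerebellum, 77.7 ± 12 CPM in cortex and 34.4 ± 5.0 CPM in hippocampus (SD, n = 3). Lhx2, a selector gene of the cortex and hippocampus, averaged 59.6 ± 2.5 CPM in hippocampus and 50.02 ± 7.9 CPM in cortex (SD, n = 3), and Lhx6, a factor of interneurons from the medial ganglionic eminence, 23.2 ± 2.3 CPM in cortex and 17.8 ± 0.49 CPM in hippocampus (SD, n = 3). Emx1 and Otx1 were highest in cortex and Emx2 in hippocampus, each with the other of these 2 regions second. Foxp2 averaged 26.8 CPM in cortex, 20.3 CPM in bulb and 13 CPM in cerebellum. Bcl11b, which marks deep-layer and striatal projection neurons, averaged 174 CPM in hippocampus, 126 CPM in bulb and 109 CPM in cortex. Zbtb20, a zinc-finger repressor of hippocampal neurons and glia, had 461, 138 and 316 CPM in hippocampus, with library 2 far below the others. Without WT cerebellum library 1, Lhx9 (adjusted p = 0.00061), Emx1 (0.020), Emx2 (0.013) and Bcl11b (0.040) led by edgeR's test, and without WT hippocampus library 2 Zbtb20 did (0.034). With the library number as a block across WT regions, Lhx9 (0.031) and Zbtb20 (0.0013) also led.

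Levels of different genes can be set side by side only per length of transcript. Per kilobase of exon, the highest members in WT cerebellum were Zic1 (179 ± 5.2 CPM per kb, SD, n = 3), Neurod1 (132 ± 12) and Zic2 (91.0 ± 7.9). In WT hippocampus they were Neurod6 (101 ± 8.4 CPM per kb), Neurod2 (40.7 ± 5.0) and Bcl11b (21.4 ± 3.5). In WT olfactory bulb they were Dlx1 (60.1 ± 6.6 CPM per kb), Meis2 (57.5 ± 3.5) and Pbx3 (39.6 ± 2.8), of which Dlx1 and Meis2 did not differ beyond their spread. In WT cortex Neurod6 (30.6 ± 1.6 CPM per kb) and Neurod2 (15.1 ± 0.95) were in front.

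The same reading of the 12 KO libraries, which share no library with the WT ones, put each of the 39 members highest in the same region as in WT. The 2 sets are not fully separate, since equal library numbers of KO and WT deviated together in cerebellum, hippocampus and bulb. In KO 28 of 39 members led in 1 region, against 32.1% of 16875 genes, with 14 in cerebellum (14.3% of all genes), 4 in cortex (4.55%), 3 in hippocampus (4.23%) and 7 in olfactory bulb (8.98%). Of these, 26 led in both genotypes, Lhx9 and Emx1 led in KO only, and Neurod2 and Fezf2 led in WT only. The order of all 4 regions was the same in both genotypes for 29 members, and among the other 10 the changes of place were below the highest region. Fezf2 in KO had 30.5, 39.9 and 36.8 CPM in hippocampus and averaged 28.8 ± 1.8 CPM in cortex (SD, n = 3), a log2 difference of 0.32 (edgeR adjusted p = 0.13) beside 0.91 in WT, and it led in 0 of 17 alternatives in KO and in 17 of 17 in WT. Neurod2 in KO was higher in hippocampus (149, 133 and 138 CPM) than in cerebellum (81.5, 99.8 and 80.9 CPM), but at an adjusted p of 0.15 by edgeR. Its KO bulb libraries had 9.53, 3.09 and 1.98 CPM, and without bulb library 1, which was also the highest for Neurod6, the adjusted p of its lead was 0.00058. The KO lead of Lhx9 had an edgeR adjusted p of 0.023 and that of Emx1 one of 0.047. Lhx9 lost it without cerebellum library 2 (0.054) or any 1 cortex library (0.054 to 0.059), and Emx1 lost it in 8 of 12 such runs (0.051 to 0.15), those without cerebellum library 3, any 1 cortex library, and library 2 or 3 of hippocampus or bulb. Without KO cerebellum library 1, Emx2 (0.0024) and Bcl11b (0.0072) led, without KO hippocampus library 2 Zbtb20 did (0.020), and Cux2 lost its lead without KO cortex library 1 (0.057) or bulb library 3 (0.051). Whether the lead of any of these genes differs between genotypes is a question for the interaction test below, which called none of them.

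Several members sit beside a partner in the genome, transcribed from the opposite strand, and the ratio within a pair was not constant between regions. Zic1 over Zic4 had a CPM ratio of 14.7 in KO and 15.9 in WT cerebellum, 10.4 in both KO and WT bulb, 4.12 in KO and 5.03 in WT cortex, and 3.95 in KO and 3.18 in WT hippocampus. The ranges of single libraries did not overlap between cerebellum (12.8 to 16.7 over both genotypes), bulb (9.38 to 11.9) and the other pair of regions (3 to 5.62). Zic2 over Zic5 was 3.78 in KO cerebellum (3.47 to 4.06) and 5.0 in WT cerebellum (4.39 to 5.61), which did not overlap, and 5.09 and 5.15 in KO and WT bulb. Dlx1 over Dlx2 was 5.81 in KO bulb (5.51 to 6.01) and 4.99 in WT bulb (4.86 to 5.23), and Dlx5 over Dlx6 was 1.19 in KO bulb (1.17 to 1.21) and 1.09 in WT bulb (1.05 to 1.11), both without overlap. These 3 were the only ones without overlap among 14 comparisons of KO with WT, over 4 pairs of genes, and the ratios were not tested. For levels of single genes, 9.29% (cortex) to 11.2% (cerebellum) of all genes did not overlap between KO and WT. No such share was taken for ratios. In all 15 of 39 members overlap a gene on the other strand in the annotation, Zic1 and Zic4 each other among them. The library kit kept the strand, but whether counting used it is not given in the sources used here, so counts of overlapping genes are uncertain.

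**Figure D2:**
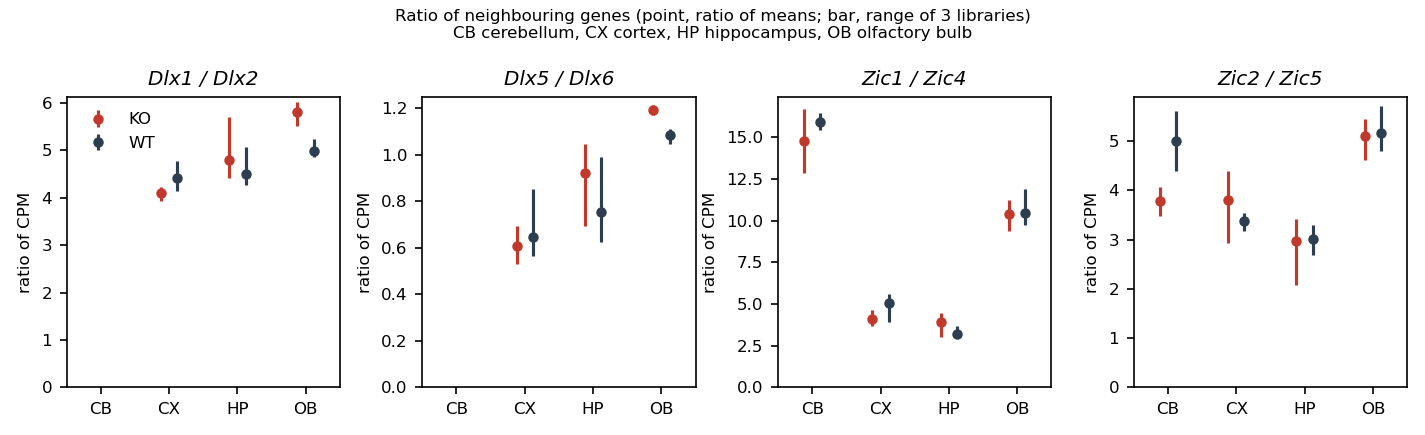
Ratio of the CPM of neighbouring genes in each region (KO red, left of WT dark), where points are ratios of group means and bars the range over 3 libraries. Zic1 over Zic4 is highest in cerebellum (14.7 in KO, 15.9 in WT), lower in bulb (10.4) and lowest in cortex and hippocampus, and the Dlx pairs are not shown for the cerebellum, where they had few or no counts.

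A wider list of 77 other regional factors, of which 75 matched, was read in the same way. In WT 34 of the 64 tested led in 1 region, against 25.8% of all genes. Of these 18 led in cerebellum, 6 in cortex, 3 in hippocampus and 7 in olfactory bulb. In KO 41 of 65 led, against 32.1% of all genes. WT leaders with high CPM were Rora (364 ± 62 CPM) and Etv1 (349 ± 44 CPM) in cerebellum, Mef2c (715 ± 5.7 CPM) and Lmo4 (190 ± 5.5 CPM) in cortex, and Bhlhe22 (104 ± 13 CPM) and Tle1 (61.7 ± 5.8 CPM) in hippocampus, and in bulb Tshz1 (409 ± 37 CPM) was among them (SD, n = 3). The order of regions by number of leaders was cerebellum first and bulb second in both lists. It was the same over all genes, with 12.1% in cerebellum and 7.79% in bulb in WT.

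Did loss of Cdr1as change any of these factors within a region? By edgeR's quasi-likelihood test no member passed an adjusted p of 0.05 in the cerebellum (0 of 29 tested, against 0.0% of 15723 genes), the cortex (0 of 34, against 0.0379% of 15834 genes), the hippocampus (0 of 31, against 0.0% of 15572 genes) or the olfactory bulb (0 of 33, against 0.0% of 16131 genes). At an unadjusted p under 0.05 there were 3, 7, 2 and 2 members in these regions, or 10.3%, 20.6%, 6.45% and 6.06% of those tested, against 5.48%, 4.2%, 5.16% and 5.33% of all genes. DESeq2 called 0, 2, 0 and 0 members, against 0.318%, 0.644%, 0.238% and 0.409% of all genes. The members' median log2 difference, KO minus WT, was -0.05 for the cerebellum, -0.21 for the cortex, 0.00 for the hippocampus and -0.03 for the bulb, beside medians of all genes between -0.01 and 0.00. Too few counts for a test were found for 10 members in the cerebellum, 5 in the cortex, 8 in the hippocampus and 6 in the bulb.

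**Figure D3:**
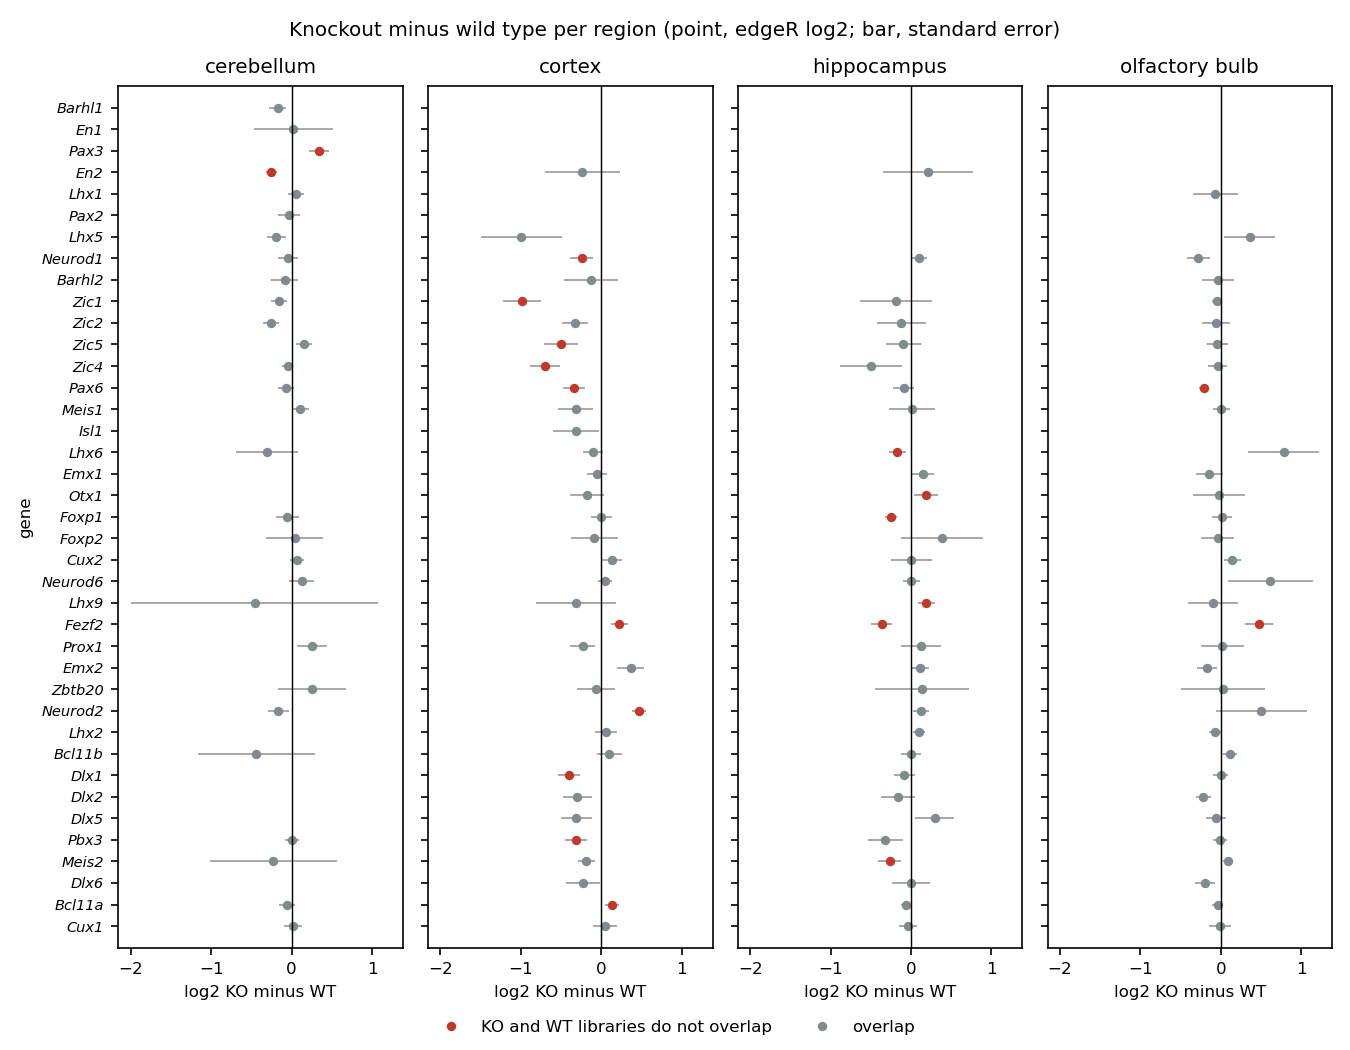
Log2 difference, KO minus WT, of each tested member (rows) in each region (panels), with its standard error as a bar. Red points mark the members whose 3 KO and 3 WT libraries do not overlap, of which the cortex has 10, the hippocampus 6, and the cerebellum and olfactory bulb 2 each.

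In the cortex 24 of 34 members were lower in KO and 10 higher, while 51.9% of all genes were lower. The split was 17 lower and 12 higher in the cerebellum, 14 and 17 in the hippocampus, and 21 and 12 in the bulb, where 50.6%, 50.4% and 50.5% of all genes were lower. In the cortex 10 of 34 had KO and WT libraries that did not overlap, against 9.29% of all genes. Neurod2, which drives excitatory neuron differentiation, had 66.9, 68.0 and 62.3 CPM in KO cortex and 44.5, 50.5 and 47.0 CPM in WT cortex. All KO values were above all WT values, by a log2 difference of 0.47 (SE 0.090) that did not pass edgeR's test over all genes (adjusted p = 0.19) and passed that of DESeq2 (adjusted p = 0.0054). Zic1 had 12.4, 17.5 and 22.3 CPM in KO cortex and 41.1, 27.1 and 34.5 CPM in WT cortex. Every KO value was below every WT value, by -0.98 in log2 (SE 0.24), again past DESeq2's threshold (adjusted p = 0.0043) and not past that of edgeR (adjusted p = 0.49). Zic4 had 3.36, 4.50 and 4.81 CPM in KO cortex and 7.32, 6.91 and 6.19 CPM in WT cortex, without overlap (log2 -0.70, SE 0.18, edgeR adjusted p = 0.50). With the library number as a block, Neurod2 passed edgeR's test (adjusted p = 0.023), but cortex numbers did not meet the condition for pairs, so this fit is only an alternative.

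The other non-overlapping cortex members were Zic5, Dlx1, Pax6, Pbx3 and Neurod1, with log2 differences of -0.50, -0.41, -0.34, -0.31 and -0.25, and Fezf2 and Bcl11a, with 0.22 and 0.13 (edgeR adjusted p from 0.86 to 1.0). Of the 7 that were lower in KO cortex, Zic1, Zic4, Zic5, Pax6 and Neurod1 have their highest WT level in cerebellum, and Dlx1 and Pbx3 in bulb. Of all 34 members tested in cortex, 18 are highest in cerebellum or bulb, and 16 of these 18 were lower in KO, against 8 of the other 16. The share lower in KO among all genes highest in cerebellum or bulb was not counted, so this split may not be particular to the members. Of 10 cerebellum markers 8 had a lower and 2 a higher mean in KO cortex. Neurod1 was lower in WT bulb (8.56 ± 0.91 CPM) than in WT cortex (11.9 ± 0.41 CPM, SD, n = 3). Olfactory bulb markers were also lower in KO cortex. Their sum was 54.2, 50.7 and 57.6 CPM in KO cortex and 168, 75.6 and 100 CPM in WT cortex, 10 of 10 markers had a lower KO mean, and 9 did not overlap. Summed thalamus markers were 83.1 to 85.6 CPM in KO cortex and 84.8 to 163 CPM in WT cortex, and summed striatum markers 782 to 1303 CPM in KO and 802 to 1363 CPM in WT cortex. The part of the bulb markers in these differences was not tested.

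**Figure D4:**
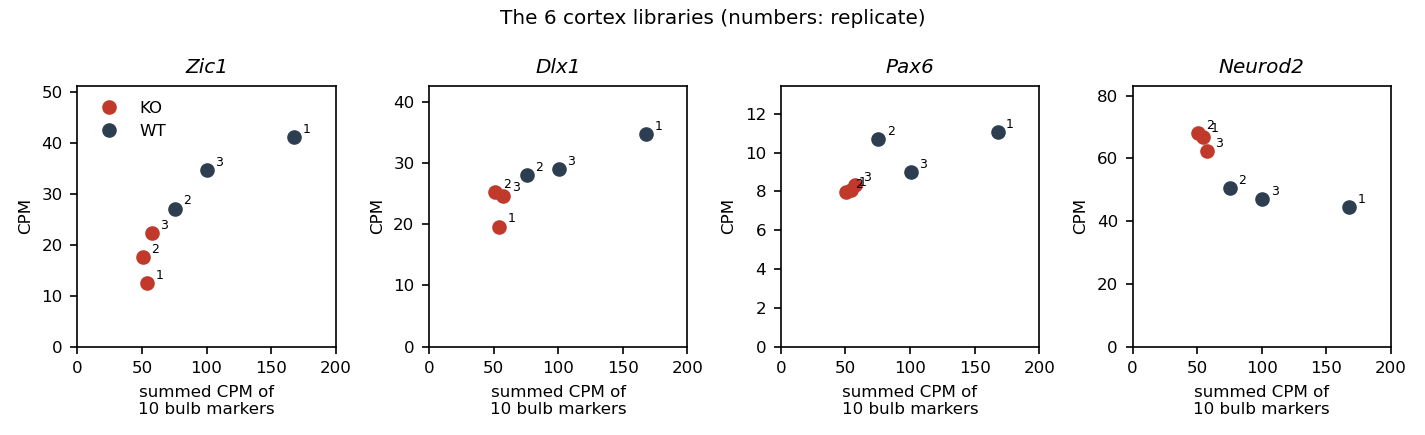
Levels of Zic1, Dlx1, Pax6 and Neurod2 (CPM, vertical axes) in the 6 cortex libraries against the summed CPM of 10 olfactory bulb markers (horizontal axes), with KO red, WT dark and the library number beside each point. The 3 KO libraries lie between 50.7 and 57.6 CPM of bulb markers and the 3 WT libraries between 75.6 and 168 CPM.

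In the cerebellum 2 of 29 members had libraries that did not overlap, against 11.2% of all genes. En2 had 128, 135 and 121 CPM in KO and 142, 159 and 155 CPM in WT cerebellum (log2 -0.25, SE 0.074, edgeR adjusted p = 0.74). Pax3 had 9.30, 8.96 and 9.16 CPM in KO and 6.24, 7.34 and 7.97 CPM in WT cerebellum (log2 0.34, SE 0.13, edgeR adjusted p = 0.85). Zic2 overlapped by 1 library, with 196, 245 and 221 CPM in KO and 264, 284 and 238 CPM in WT (log2 -0.25, SE 0.10, edgeR adjusted p = 0.88).

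In the hippocampus 6 of 31 members did not overlap, against 10.5% of all genes. They were Lhx9 and Otx1, higher in KO, and Lhx6, Meis2, Foxp1 and Fezf2, lower in KO. Foxp1 had 66.1, 69.5 and 67.3 CPM in KO and 85.2, 77.3 and 78.6 CPM in WT hippocampus (log2 -0.25, SE 0.073, edgeR adjusted p = 0.95). Lhx9, a LIM homeobox factor, had 22.6, 19.6 and 19.1 CPM in KO and 17.9, 18.8 and 16.9 CPM in WT (log2 0.19, SE 0.10, edgeR adjusted p = 1.0). Fezf2 had 30.5, 39.9 and 36.8 CPM in KO and 41.7, 52.0 and 43.8 CPM in WT (log2 -0.36, SE 0.13, edgeR adjusted p = 0.95). Choroid plexus markers summed to 37.8 to 51.8 CPM in KO hippocampus and to 41.5 to 3327 CPM in WT hippocampus, where libraries 1 and 3 were the high ones. Summed striatum markers were 97.6 to 105.8 CPM in KO and 106.4 to 128.1 CPM in WT hippocampus, without overlap, and 4 of 10 of these markers were lower without overlap and 1 higher. Inhibitory neuron markers were lower in KO for 8 of 8, with sums of 1209 to 1351 CPM in KO and 1332 to 1352 CPM in WT, and cortex markers for 9 of 10, with sums of 413 to 491 CPM in KO and 456 to 602 CPM in WT. Their part in the differences of Foxp1, Meis2, Lhx6 and Fezf2 was not tested.

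In the olfactory bulb 2 of 33 members did not overlap, against 10.2% of all genes. Pax6, needed there for dopaminergic periglomerular neurons, had 64.0, 68.9 and 67.4 CPM in KO and 72.7, 79.3 and 76.9 CPM in WT bulb (log2 -0.21, SE 0.063, edgeR adjusted p = 0.82). Fezf2 had 2.28, 2.82 and 2.58 CPM in KO and 2.02, 1.60 and 1.84 CPM in WT bulb (log2 0.48, SE 0.17, edgeR adjusted p = 0.91). Excitatory neuron markers were higher in KO bulb for 4 of 5, with sums of 1731 to 1977 CPM in KO and 1522 to 1671 CPM in WT bulb, without overlap. Cortex markers were higher for 9 of 10, with sums of 618 to 784 CPM in KO and 596 to 765 CPM in WT. Striatum markers were lower for 7 of 10 and higher for 3. Their sums were 255 to 301 CPM in KO and 304 to 331 CPM in WT bulb, without overlap. Olfactory bulb markers were also lower for 7 of 10 and higher for 3, with sums of 1902 to 2167 CPM in KO and 1901 to 2078 CPM in WT. Microglia markers were lower for 7 of 7 and oligodendrocyte markers higher for 6 of 6, with overlapping sums. The part of these lists was not tested. Dlx2 had 54.8, 61.0 and 53.5 CPM in KO and 62.2, 74.5 and 58.3 CPM in WT, with overlap (log2 -0.22, SE 0.093, edgeR adjusted p = 0.93).

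**Figure D5:**
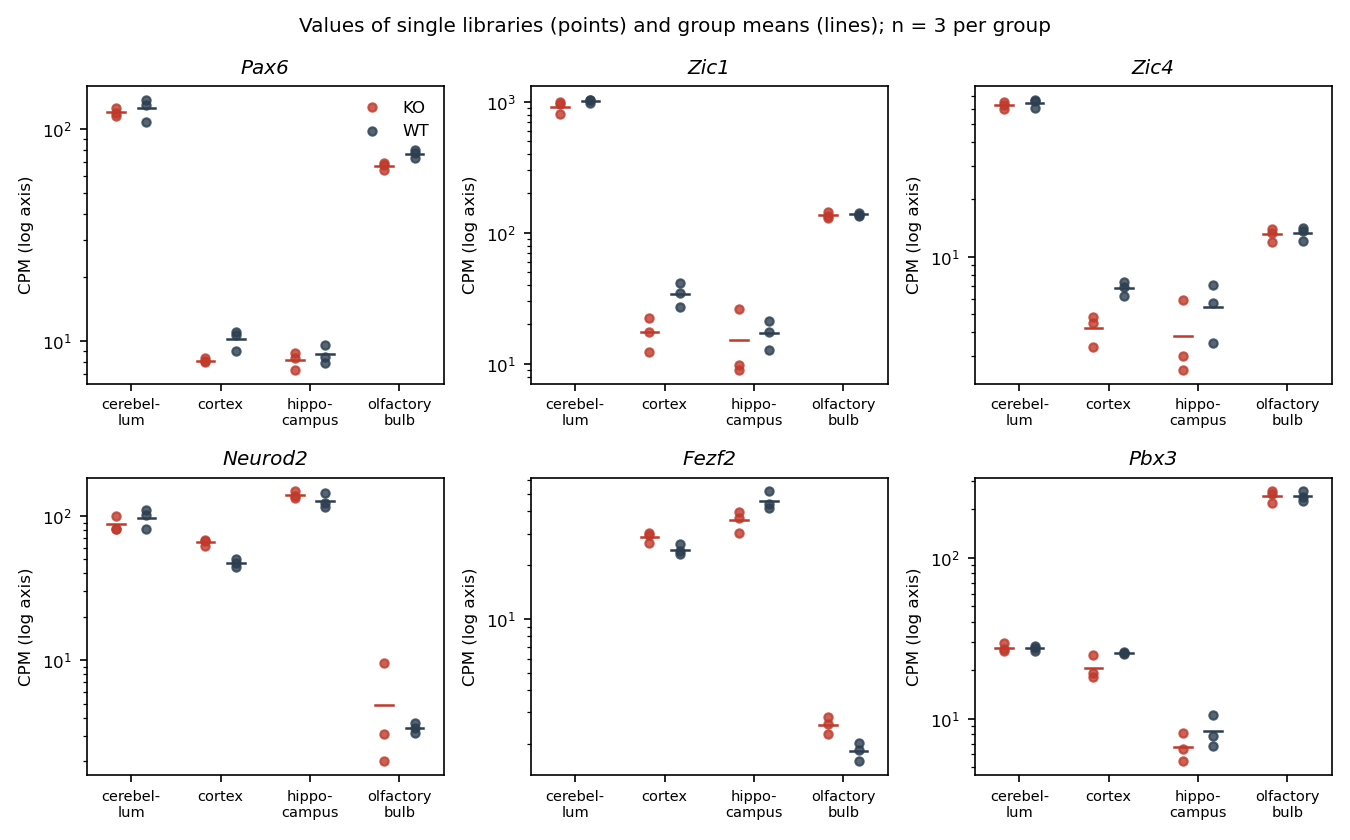
CPM of single libraries (points) and group means (lines) of Pax6, Zic1, Zic4, Neurod2, Fezf2 and Pbx3 in each region, KO red and left of WT dark, on log axes with n = 3 per group. In cortex the KO libraries of Zic1 lie at 12.4 to 22.3 CPM, below the WT libraries at 27.1 to 41.1 CPM, and those of Neurod2 at 62.3 to 68.0 CPM, above the WT libraries at 44.5 to 50.5 CPM. Fezf2 is not shown for the cerebellum, where it had at most 1 count per library.

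Averaged over the 4 regions, the KO effect passed edgeR's adjusted p of 0.05 for 0 of 39 members, against 2.68% of 17266 genes. At an unadjusted p under 0.05 there were 4 members, Pax6, Zic4, Zic1 and Pbx3, or 10.3% of 39 against 14.02% of all genes, and DESeq2 called 1 member, against 4.58% of all genes. For Dlx2 and Pax2, which had no count in some groups, the mean difference had no usable standard error. Pax6 was the nearest to the threshold, with a log2 difference of -0.17 (SE 0.048, lower in 9 of 12 pairs, edgeR adjusted p = 0.069). It passed in 4 of 31 alternatives, which were region and library number as a block (adjusted p = 0.035), DESeq2 (0.044), and leaving out WT cerebellum library 1 (0.023) or WT cortex library 3 (0.039). The block joins cortex libraries by number too, although these did not meet the condition for pairs. It is set within each region and does not join equal numbers across regions. Without the cortex the difference was -0.11 (adjusted p = 0.44), and without the libraries numbered 2 also -0.11 (0.42).

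Zic4 and Zic1, which lie head to head, had mean log2 differences of -0.31 (SE 0.12, lower in 9 of 12 pairs, edgeR adjusted p = 0.20) and -0.33 (SE 0.14, lower in 10 of 12 pairs, adjusted p = 0.29). One library mattered for both. KO hippocampus library 2 had 26.4 CPM of Zic1, against 8.99 and 9.87 CPM in the other KO and 12.9 to 21.3 CPM in the WT hippocampus libraries, and without it the mean differences were -0.51 for Zic1 (adjusted p = 0.0058) and -0.43 for Zic4 (adjusted p = 0.013). Without the cortex they were -0.11 for Zic1 (adjusted p = 0.90) and -0.18 for Zic4 (0.71), and without the 5 libraries rich in choroid plexus markers -0.24 (0.77) and -0.17 (0.77). That library also had the highest sum of thalamus markers, 218 CPM against 81.4 to 108 CPM in the other 5 hippocampus libraries. Its summed meninges markers were 175 CPM, against 63.0 and 68.7 CPM in the other KO and 124 to 180 CPM in the WT libraries. Pbx3 had a mean difference of -0.15 (SE 0.072, edgeR adjusted p = 0.36), with 19.2, 24.7 and 18.1 CPM in KO and 25.5, 26.0 and 25.3 CPM in WT cortex. Isl1 had one of 1.10 (SE 0.64, edgeR adjusted p = 0.49), which rested on a handful of counts outside the cortex, since in cortex it was -0.32.

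The difference of the KO effect between regions passed for 0 of 39 members, against 0.0232% of 17266 genes, and 2 members had an unadjusted p under 0.05, against 2.54% of all genes (edgeR, with 0 by DESeq2, against 0.232% of all genes). Fezf2 had the smallest p, 0.00095 (adjusted p = 0.53). All 3 KO libraries lay above all 3 WT libraries in cortex and in bulb and below them in hippocampus, with log2 differences of 0.22, 0.48 and -0.36. The test also takes in the cerebellum, where Fezf2 had 3 WT counts and 1 KO count. Its mean log2 difference over the 4 regions was -0.25. The part of the cerebellum in the p of the interaction was not tested. Pax2 and Lhx5 had the next smallest p in edgeR's fit, both with an adjusted p of 1.0, and their levels outside the cerebellum reached at most 1.12 CPM.

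Of the wider list, 2 of 67 factors passed edgeR's test of the mean KO effect, or 2.99%, against 2.68% of all genes. Ebf1, an early B-cell factor family member found in cerebellar and bulb neurons, rose by 0.30 in log2 (adjusted p = 0.029), with 62.1 ± 2.8 CPM in KO and 55.4 ± 0.026 CPM in WT cerebellum and 6.08 ± 0.31 CPM in KO and 4.05 ± 0.41 CPM in WT bulb (SD, n = 3). It averaged 5.52 ± 0.82 CPM in KO and 5.36 ± 0.77 CPM in WT cortex, and 3.85 ± 0.89 CPM in KO and 2.91 ± 0.46 CPM in WT hippocampus (SD, n = 3). Id2, an inhibitor of bHLH factors, fell by 0.20 (adjusted p = 0.036), with 107 ± 10 CPM in KO and 123 ± 7.9 CPM in WT cortex and 148 ± 6.6 CPM in KO and 169 ± 8.2 CPM in WT cerebellum (SD, n = 3). It averaged 67.6 ± 6.5 CPM in KO and 77.3 ± 5.9 CPM in WT hippocampus, and 112 ± 13 CPM in KO and 129 ± 14 CPM in WT bulb (SD, n = 3). Ebf1 lost its call in 8 of 24 runs that left out 1 library (adjusted p of 0.050 to 0.061), those without KO cerebellum library 2 or 3, KO cortex library 1, KO hippocampus library 2, WT hippocampus library 1, KO bulb library 2, or WT bulb library 1 or 2. Id2 lost its call in 14 of these runs (0.051 to 0.073), those without any 1 KO cerebellum library, WT cerebellum library 2 or 3, KO cortex library 2 or 3, WT cortex library 3, KO hippocampus library 1 or 3, WT hippocampus library 2 or 3, KO bulb library 3 or WT bulb library 2. In single regions edgeR called 0 of the 56, 59, 55 and 53 wider-list factors tested in cerebellum, cortex, hippocampus and bulb. At an unadjusted p under 0.05 there were 3, 6, 10 and 2, against 5.48%, 4.2%, 5.16% and 5.33% of all genes. DESeq2 called 0, 1, 0 and 0 there (1.69% in cortex, against 0.644% of all genes), and 5 of 67 for the mean, or 7.46%, against 4.58% of all genes.

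Promoters were read for the 4 members with the smallest p on average or in the cortex, since Zic1 and Zic4 lie side by side and Pax6 and Neurod2 came closest to the threshold. Each window runs from 250 bases before to 50 after a transcript start in RefSeq, on mouse assembly GRCm38.p6, 5′ to 3′ along the gene. Capitals mark the Meis core TGACAG or the Neurod E-box CAGATG, on either strand. The windows are chr9:91365719-91366018 (minus strand) for Zic1, chr9:91368722-91369021 (plus) for Zic4, chr11:98329596-98329895 (minus) for Neurod2, and chr2:105668646-105668945 and chr2:105682213-105682512 (plus) for 2 starts of Pax6.
Zic1: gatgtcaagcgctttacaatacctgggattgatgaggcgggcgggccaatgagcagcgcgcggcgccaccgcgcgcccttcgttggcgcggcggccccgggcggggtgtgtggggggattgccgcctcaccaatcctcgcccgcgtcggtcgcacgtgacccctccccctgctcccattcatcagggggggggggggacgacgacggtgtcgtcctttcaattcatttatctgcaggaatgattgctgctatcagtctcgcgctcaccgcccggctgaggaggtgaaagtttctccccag
Zic4: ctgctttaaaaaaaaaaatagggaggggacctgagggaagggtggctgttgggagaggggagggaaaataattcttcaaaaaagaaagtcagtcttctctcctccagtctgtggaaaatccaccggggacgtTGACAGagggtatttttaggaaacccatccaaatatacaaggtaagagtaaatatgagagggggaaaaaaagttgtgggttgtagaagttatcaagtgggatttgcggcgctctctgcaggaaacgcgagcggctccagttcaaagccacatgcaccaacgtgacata
Neurod2: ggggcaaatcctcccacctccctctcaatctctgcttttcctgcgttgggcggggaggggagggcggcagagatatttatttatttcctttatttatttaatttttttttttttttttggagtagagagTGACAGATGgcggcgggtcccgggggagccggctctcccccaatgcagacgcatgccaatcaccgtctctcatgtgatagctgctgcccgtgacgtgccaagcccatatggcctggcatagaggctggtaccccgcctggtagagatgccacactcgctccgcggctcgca
Pax6, upstream start: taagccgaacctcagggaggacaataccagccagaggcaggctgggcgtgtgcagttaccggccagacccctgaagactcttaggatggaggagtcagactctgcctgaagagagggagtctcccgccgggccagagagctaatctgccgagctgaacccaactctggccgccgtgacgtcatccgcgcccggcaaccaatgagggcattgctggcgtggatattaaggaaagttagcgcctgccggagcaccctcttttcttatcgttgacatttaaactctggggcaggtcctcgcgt
Pax6, downstream start: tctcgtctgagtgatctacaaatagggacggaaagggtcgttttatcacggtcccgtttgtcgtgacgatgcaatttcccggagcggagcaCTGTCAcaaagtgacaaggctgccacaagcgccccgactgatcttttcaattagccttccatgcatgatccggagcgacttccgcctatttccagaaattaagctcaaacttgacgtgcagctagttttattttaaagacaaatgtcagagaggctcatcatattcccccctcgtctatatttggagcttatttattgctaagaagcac

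Zic4 and the downstream Pax6 start each held 1 TGACAG, in Pax6 as its reverse complement, while Zic1 and the upstream Pax6 start held none of the motifs searched. In Neurod2 both motifs overlap in 1 run of 9 bases. Over the 30 members with a RefSeq window, TGACAG was in 10 of 41 windows (24.4%, against 19.2% of 32851 windows of the same length), CAGATG in 4 (9.76%, against 17.2%) and the homeodomain core TAATTA in 3 (7.32%, against 5.29%), with both strands searched. The members' windows had a median GC content of 61.3%, against 52.7% over all windows. A match says only that these letters are in the window.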

How the data were processed

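The files hold raw counts of reads per gene as the authors deposited them, with 1 table for each library. The submitters' processing notes name bcl2fastq 2.17.1.14, STAR 2.5.1b, HTSeq 0.6.1p1 and the mouse build mm9, and the labels' protocols name a strand-keeping kit. Each table had 37621 features and 5 summary lines that name no gene, which entered neither totals nor tests. These lines held 8.22% to 16.8% of reads outside any feature, 10.3% to 13.5% not unique and 0.576% to 0.764% ambiguous. A reference gene table gave symbols for 32897 IDs. Library pairs of 1 group differed by more than sampling noise, with chi-square over degrees of freedom between 6.97 and 60.0.

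Counts were filtered with filterByExpr, scaled with TMM and tested with edgeR 4.0.16 (glmQLFit with robust=TRUE, glmQLFTest) in R 4.3.3, with Benjamini-Hochberg adjustment over all genes of a contrast. Regions were compared within each genotype (12 libraries), KO with WT within each region (6 libraries), and the mean and the difference of the KO effect over all 24. The steps were tested on simulated data with 200 changed genes. The cortex KO fit recovered 21% of genes changed by a log2 of 0.5 and 91% of those changed by 1. These shares were 92% and 99% in the fit of the mean effect, and 17% and 74% in the WT region fit. The simulated changed genes were drawn only from those above a minimum level. Having 200 true changes also eases the adjustment, and in the real cortex only 6 of 15834 genes passed. Recovery in the real data may therefore be lower. Zic1 in cortex, at a log2 of -0.98, had an edgeR adjusted p of 0.49. A region's count of 0 members called thus says little about changes of 0.5 or less, and cannot exclude changes near 1. Alternatives were DESeq2 1.42.0, other size factors, no filter, a block for the library number, and leaving out libraries. Exon lengths and overlaps came from a GENCODE annotation of GRCm38, matched by ID, and promoters from RefSeq.

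The members, the wider list and the marker lists were chosen with earlier results of these data known. Values are given for the 5 members with the smallest p on average, the 3 in each region and the 3 of the interaction, besides Cdr1asG, any factor called, and the 2 wider-list leaders of highest CPM in each region, of which 1 is not reported here. Other members named in the KO comparisons, and the patterns of single libraries and neighbour ratios, were chosen after their values were seen. Equal library numbers of KO and WT deviated together, over 16098 genes, with correlations of 0.266 to 0.726 in cerebellum, 0.337 to 0.609 in hippocampus and 0.284 to 0.784 in olfactory bulb, which were taken as pairs. In cortex they ran from -0.048 to 0.685, below the minimum of 0.1, and were not. Across regions of a genotype they were 0.110 to 0.675 in WT (pairs) and -0.012 to 0.718 in KO (not). The main tests did not use the pairs and treated all libraries as unpaired. Library numbers entered only the counts of pairs and the block alternative. Counts of pairs over all regions include the cortex.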

Additional observations from a re-analysis of the deposited data

Results flagged for a closer look

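Fezf2 was flagged by a rule that picks members whose KO libraries lie wholly above WT in 1 region and wholly below in another. Its log2 difference, KO minus WT, was 0.22 in cortex and 0.48 in olfactory bulb, with all 3 KO libraries above all 3 WT libraries in each, and -0.36 in hippocampus, with all 3 KO libraries below all 3 WT libraries. The edgeR test of the difference between regions had a p of 0.00095 and an adjusted p of 0.53 over all genes, so the difference did not pass the correction. This test also took in the cerebellum, where Fezf2 had 3 WT counts and 1 KO count. The lack of overlap is the rule itself and adds no evidence. How many of all genes meet the rule was not counted. In single regions 9.29% (cortex), 10.5% (hippocampus) and 10.2% (bulb) of all genes did not overlap.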

How the results depend on the processing

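No result turned its direction under any alternative. Of the counts of members, 128 alternative values stayed within 1.5 times the reported count and 8 did not. Of the values of single genes, 1699 kept their side of the threshold, 30 passed it and 57 lost it. The cortex count of members called, 0 as reported, became 1 with the replicate block (Neurod2) and 2 with DESeq2 (Neurod2 and Zic1). The count for the mean effect, 0 as reported, became 1 with the replicate block and 1 with DESeq2 (Pax6 in both), 2 without the 8 libraries numbered 2 (Zic1 with a log2 of -0.59 and adjusted p of 0.016, Zic4 with -0.52 and 0.0095), and 0 to 2 when 1 library was left out. The numbers of members leading in 1 region ran from 27 to 31 in WT and from 25 to 30 in KO when 1 library was left out, and were 29 and 29 with the replicate block, 30 and 30 with DESeq2, and 28 and 26 without the filter. With the block Cux2 lost its WT lead (adjusted p = 0.050) while Lhx9 and Zbtb20 gained one, and Zbtb20 gained a KO lead (0.0076). Without the libraries numbered 2, an alternative chosen after seeing the data, Foxp1 lost its WT lead (adjusted p = 0.096), and Ebf1 and Id2 lost their calls (0.21 and 0.12). Without the 5 libraries rich in choroid plexus markers, also chosen after seeing the data, Ebf1 and Id2 were at 0.40 and 0.28, and Id2 was at 0.10 without the cortex. The replicate block changed no other call of a named gene. The causes were not tested. Members at few counts per library, such as En1, Pax3 and Isl1 outside their region, cannot show a KO effect there at this depth.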
